A study of Mus musculus with 74 samples.

Results

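Among 74 single cells of the mouse pro-epicardial organ, 14 carried an intermediate amount of Actc1, the cardiac alpha-actin transcript. They were set against 19 mesenchymal cells that held little Actc1 and little Lhx9, a LIM-homeobox gene of the mesothelial pro-epicardial cells. Membership was decided by expression. Intermediate cells had Actc1 from 500 to below 5000 CPM (counts scaled to a common total, so that cells of different depth can be compared). Mesenchymal cells had Actc1 under 500 CPM together with an Lhx9 count under 5. The other cells were 9 strongly muscle-like cells with Actc1 of at least 5000 CPM, and 32 Lhx9-positive cells with Actc1 under 500 CPM and an Lhx9 count of at least 5. All cells were sorted from the pro-epicardial organ of C57BL/6 embryos at embryonic day 9.5 that carried Tbx18Cre and the mTmG reporter, a membrane fluorophore that changes colour after Cre has acted. Tbx18Cre is meant to mark cells that express Tbx18 and all their descendants, so the sort selects a lineage and not a present state. The labels name no embryo, litter, treatment or control. The 74 cells were therefore taken as 1 sample, cells were not treated as replicates, and no test was made.

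Some cells lay close to the bounds. Actc1 was 530 CPM in the lowest intermediate cell, against 420 CPM in the highest Lhx9-positive cell and 260 CPM in the highest mesenchymal cell. It was 4759 CPM in the highest intermediate cell and 8840 CPM in the lowest strongly muscle-like cell. The lowest Lhx9 count in an Lhx9-positive cell was 15, and the highest in a mesenchymal cell was 1. The bound on Lhx9 did not apply to the intermediate cells, and 2 of them passed it, cell P1-12 with 61 counts and cell P1-3 with 25 counts. As Actc1 and Lhx9 chose the cells, their levels are not results.

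The pro-epicardial organ is a cauliflower-like outgrowth of coelomic mesothelium at the venous pole of the heart, next to the septum transversum and the sinus horns. Its cells spread over the heart as epicardium. The neighbouring inflow myocardium, from which the sinoatrial node forms, also has a Tbx18-expressing origin, so a Tbx18 lineage sort can hold mesothelial, mesenchymal and muscle cells. Muscle cells build the sarcomere from thick filaments of myosin and thin filaments of actin, troponin and tropomyosin, and they couple electrical activity to contraction by releasing calcium from the sarcoplasmic reticulum.

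Promoter sequences of 3 sarcomere genes that were higher in the intermediate cells are shown because each holds a CArG box, the motif bound by serum response factor (SRF), a regulator shared by cardiac and smooth muscle genes. Each is the stretch of 250 bases before the annotated start, 5′ to 3′ on the gene's strand, from RefSeq (GRCm38.p6), with the CArG box in capitals. Myl7 lies at chr11:5898783-5899032 on the minus strand, Myom1 at chr17:71019307-71019556 on the plus strand and Myl9 at chr2:156775214-156775463 on the plus strand. The boxes begin 61, 99 and 161 bases before the start in Myl7, Myom1 and Myl9.

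Myl7: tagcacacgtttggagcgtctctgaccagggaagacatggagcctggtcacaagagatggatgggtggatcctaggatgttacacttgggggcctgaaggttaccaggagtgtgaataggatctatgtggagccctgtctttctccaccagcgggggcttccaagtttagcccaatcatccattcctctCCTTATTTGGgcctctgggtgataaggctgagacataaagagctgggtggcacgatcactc

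Myom1: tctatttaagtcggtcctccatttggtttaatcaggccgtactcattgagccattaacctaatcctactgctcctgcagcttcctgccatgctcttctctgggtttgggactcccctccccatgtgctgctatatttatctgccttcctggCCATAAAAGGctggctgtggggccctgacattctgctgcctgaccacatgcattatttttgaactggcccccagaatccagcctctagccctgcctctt

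Myl9: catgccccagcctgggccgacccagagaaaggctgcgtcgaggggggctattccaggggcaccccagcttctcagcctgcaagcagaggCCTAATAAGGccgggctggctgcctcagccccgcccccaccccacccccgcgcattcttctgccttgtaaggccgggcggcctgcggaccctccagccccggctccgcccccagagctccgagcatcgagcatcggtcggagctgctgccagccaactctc

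Each gene was described by its mean CPM in both groups, by the ratio of these means (fold) and by the share of all pairs of 1 intermediate and 1 mesenchymal cell in which the intermediate cell was the higher, with ties counted as 0.5. A gene was called higher at a fold of at least 2 and at least 75% of pairs, and called lower at the inverse ratio and at most 25% of pairs. Calls are thus statements of size in these cells, with no p-value. Genes entered when 5 or more of the 33 cells held 5 or more counts. Of 11006 such genes, 77 were called higher in the intermediate cells (0.7% of the genes) and 96 were called lower (0.872%), together 1.57%. The median log2 fold over all tested genes was -0.04. In 0 of the 11006 genes were the groups fully apart. Leaving out any 1 of the 33 cells kept 48 of the 77 higher and 64 of the 96 lower calls throughout.

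**Figure D1:**
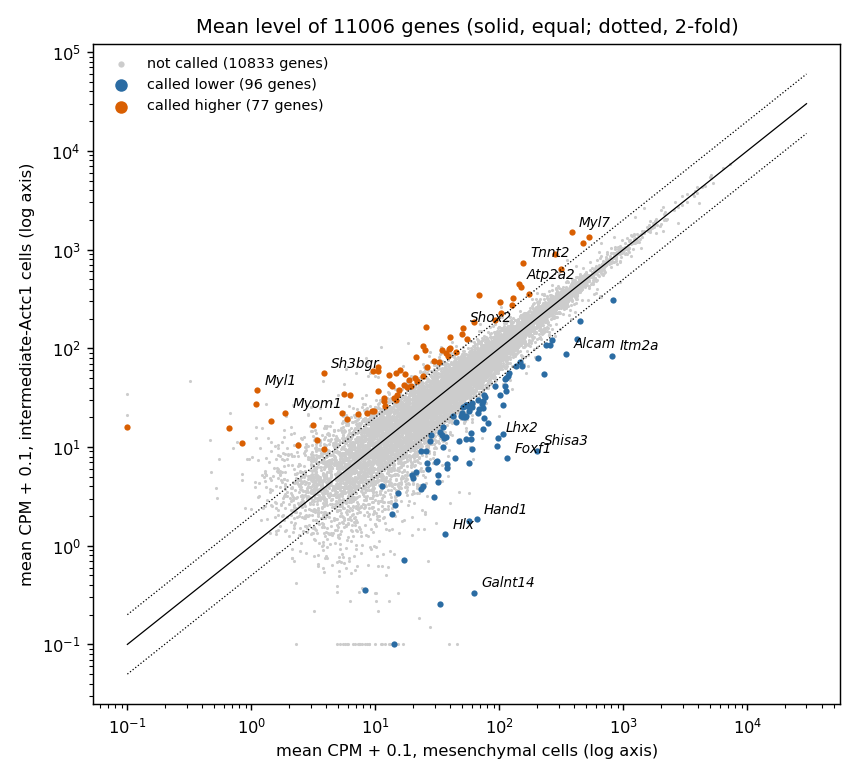
Mean level of 11006 genes in intermediate cells (vertical axis, CPM + 0.1, log axis) against mesenchymal cells (horizontal axis, same scale). Each point is a gene, the solid line marks equal means and the dotted lines a 2-fold difference. The 77 genes called higher lie above the upper dotted line and the 96 called lower lie below the lower one. Grey points outside the dotted lines did not reach the required share of cell pairs.

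The sequencing depth of both groups overlapped, with a lower median in the intermediate cells. Total estimated counts ran from 275837 to 1808887 in intermediate cells (median 846318) and from 327963 to 2046584 in mesenchymal cells (median 1088060). Detection in a cell was set at 5 counts, and the median number of genes detected was 7759.5 in intermediate cells and 7883 in mesenchymal cells. Mitochondrially encoded genes took 2.08% of counts on average in intermediate cells (median 2.22%) and 2.06% in mesenchymal cells (median 1.73%). Of the housekeeping, mitochondrially encoded, dissociation stress and p53 lists (15, 13, 18 and 11 tested genes), no member was called in either direction.

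Markers of other cell types were low in both groups. The summed level of 20 endothelial genes had a median of 183 CPM (range 41.6 to 359) in intermediate cells and 182 CPM (113 to 300) in mesenchymal cells, and Kdr, the endothelial VEGF receptor, had 0 counts in every intermediate cell. The sum of 18 erythroid and leukocyte genes had a median of 78.4 CPM (0 to 588) in intermediate cells and 19.5 CPM (0 to 194) in mesenchymal cells. Its most abundant member was Hba-a2, an alpha-globin gene with near-identical copies, at 66.6 ± 90.3 CPM in intermediate cells and 16.6 ± 21.6 CPM in mesenchymal cells (mean ± SD over cells, as throughout, n = 14 and 19). The erythroid transcription factors Klf1 and Gata1 had 0 counts in the intermediate cells. Other members of this list, Hbb-y, Hba-x, Alas2 and Csf1r, were detected among the intermediate cells and in no mesenchymal cell. Itgam was detected among the mesenchymal cells and in no intermediate cell. The sum of 18 hepatoblast and foregut genes had a median of 17.7 CPM (0 to 429) in intermediate cells and 22.2 CPM (0 to 150) in mesenchymal cells, with Afp and Hnf4a at 0 in the intermediate cells. The sum of 16 neural crest and neuronal genes had a median of 5.45 CPM (0 to 308) in intermediate cells and 3.68 CPM (0 to 43) in mesenchymal cells. No gene of these 4 lists was called, but few of their genes passed the filter on low counts. Of the 5 endothelial genes tested, 2 had a fold above 1 (median log2 fold -0.17). The fold was above 1 in 4 of 4 tested erythroid and leukocyte genes (median log2 fold 1.75). It was also above 1 in 4 of 4 tested hepatoblast and foregut genes (1.97) and in the 1 neural gene tested (3.67). With so few genes tested, the lack of calls says little. The part of these 4 lists in the results below was not tested.

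Sarcomere genes were the group most often called higher in the intermediate cells among the lists with at least 10 tested members. Of 48 genes on the list, 34 passed the filter on low counts, 8 of these were called higher (23.5%, against 0.7% of all genes) and 0 lower. Their median log2 fold was 1.98, against -0.04 over all genes, and the fold was above 1 in 34 of the 34. The filter counts the cells of both groups together, so genes seen in just a few cells, or in 1 group alone, could pass. Members such as Myom1 and Nexn passed it through the intermediate cells, where they were high. The 34 of 34 and the median are therefore not independent of the filter, and the 14 members below it are left out of them. The summed level of the 48 genes ran from 6313 to 15514 CPM in intermediate cells (median 9574), from 20967 to 70077 CPM in strongly muscle-like cells (median 31762), from 1686 to 7233 CPM in Lhx9-positive cells (median 4004) and from 2114 to 10758 CPM in mesenchymal cells (median 6095). The intermediate cells overlapped the mesenchymal cells and stayed below every strongly muscle-like cell.

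Tnnt2 encodes cardiac troponin T, which ties the troponin complex to tropomyosin on the thin filament. Tnnt2 (ENSMUSG00000026414, chromosome 1, 135836354 to 135852260, GRCm38) ran from 192 to 1401 CPM in intermediate cells (median 643) and from 16.1 to 639 CPM in mesenchymal cells (median 115). Every intermediate cell lay above the mesenchymal median, and 7 of the 14 lay above the highest mesenchymal cell. The mean was 736 ± 414 CPM in intermediate cells and 156 ± 170 CPM in mesenchymal cells, a fold of 4.73 with 93.6% of pairs in that direction. Tnnt2 was not absent from the mesenchymal cells. It was detected in 14 of 14 intermediate cells (exact binomial 95% interval 76.8% to 100%) and in 19 of 19 mesenchymal cells (82.4% to 100%). These intervals cover the counting of cells, not differences between embryos. The mean was 2083 ± 1160 CPM in strongly muscle-like cells and 101 ± 70.6 CPM in Lhx9-positive cells.

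Of the thick-filament genes, Myl7 and Mybpc3 were called higher. Myl7, the atrial regulatory myosin light chain (ENSMUSG00000020469, chromosome 11, 5896637 to 5898782), ran from 287 to 3223 CPM in intermediate cells (median 1035) and from 0 to 1713 CPM in mesenchymal cells (median 164). The ranges overlapped, and 5 intermediate cells lay above all mesenchymal cells. Myl7 averaged 1504 ± 1118 CPM in intermediate cells and 382 ± 545 CPM in mesenchymal cells, a fold of 3.93 with 87.2% of pairs. Strongly muscle-like cells averaged 7819 ± 4587 CPM and Lhx9-positive cells 667 ± 572 CPM. Mybpc3, cardiac myosin-binding protein C, averaged 163 ± 205 CPM in intermediate cells, 1224 ± 424 CPM in strongly muscle-like cells and 25.5 ± 46.4 CPM in mesenchymal cells, a fold of 6.4. Its share of pairs was 75.2%, next to the bound. Leaving out any 1 of 18 cells ended its call, and the fold was 9.81 without mesenchymal cell P1-21.

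Genes of the filament lattice and of sarcomere assembly were mostly low and patchy. Myom1, myomesin of the M-band, ran from 0 to 98.1 CPM in intermediate cells (median 13.0) and from 0 to 22.8 CPM in mesenchymal cells (median 0). It was detected in 9 of 14 intermediate and 2 of 19 mesenchymal cells, with a fold of 12.3, or 36 without mesenchymal cell P1-86. Nebl, the Z-disc protein nebulette, was detected in 12 of 14 intermediate cells and in 4 of 19 mesenchymal cells. Its means were 58.8 ± 53.8 CPM in intermediate cells and 10.4 ± 26.4 CPM in mesenchymal cells, a fold of 5.65, or 11.2 without mesenchymal cell P1-63. Unc45b is a chaperone that folds the myosin head. It averaged 345 ± 291 CPM in intermediate cells, 952 ± 508 CPM in strongly muscle-like cells, 348 ± 340 CPM in Lhx9-positive cells and 68.0 ± 116 CPM in mesenchymal cells, a fold of 5.08 over the mesenchymal cells. Its level in Lhx9-positive cells was thus close to that in intermediate cells. Nexn, an actin-binding Z-disc protein, had 8 of 14 intermediate and 2 of 19 mesenchymal cells with detection and a fold of 27.7. That fold was 15.4 without intermediate cell P1-19, and 47.1 and 59.4 without mesenchymal cells P1-23 and P1-81, and the call was lost on leaving out any 1 of 8 cells. Myl9, a regulatory light chain also of smooth muscle, averaged 276 ± 188 CPM in intermediate cells and 127 ± 149 CPM in mesenchymal cells, a fold of 2.18, and lost its call on leaving out any 1 of 7 cells.

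Several abundant sarcomere genes were present in both groups at closer levels. Tnni1, slow troponin I, the isoform of the embryonic heart, ran from 1308 to 3316 CPM in intermediate cells (median 2150) and from 402 to 2841 CPM in mesenchymal cells (median 1070). The intermediate cell was the higher in 88.3% of pairs, yet the fold was 1.75, under the bound of 2. Myl4, the atrial essential light chain, had a fold of 1.76 and Tpm1, tropomyosin, a fold of 1.23, at means of 1312 ± 439 CPM in intermediate cells and 1068 ± 473 CPM in mesenchymal cells. Other genes had large folds but too few pairs. Myh6, alpha-myosin heavy chain, averaged 61.8 ± 97.2 CPM in intermediate cells, 2015 ± 1899 CPM in strongly muscle-like cells and 5.74 ± 18.0 CPM in mesenchymal cells, a fold of 10.8 with 74.6% of pairs. Ttn, the giant elastic filament titin, averaged 103 ± 134 CPM in intermediate cells and 11.0 ± 16.2 CPM in mesenchymal cells, a fold of 9.31 with 74.2% of pairs. Both lay just below the required 75%.

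Some genes of the mature contractile apparatus were seen in strongly muscle-like cells and in no intermediate cell. Tcap, the titin cap, Xirp1, which binds actin at intercalated discs, and Lmod2, which lengthens thin filaments, had 0 counts in all 14 intermediate cells and were detected in 3, 5 and 2 of the 9 strongly muscle-like cells. Detection in 0 of 14 cells allows a share of up to 21.4%, taking 3 cells over 14 as the limit and not an exact interval. Nkx2-5, a cardiac transcription factor, and Cox6a2, a heart and skeletal muscle subunit of cytochrome c oxidase, were likewise at 0 counts in every intermediate cell and detected in 4 of 9 strongly muscle-like cells each. All 5 genes were also at 0 counts in the mesenchymal cells. In the Lhx9-positive cells Tcap, Xirp1 and Lmod2 were at 0 counts, but Nkx2-5 and Cox6a2 were detected among these cells.

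**Figure D2:**
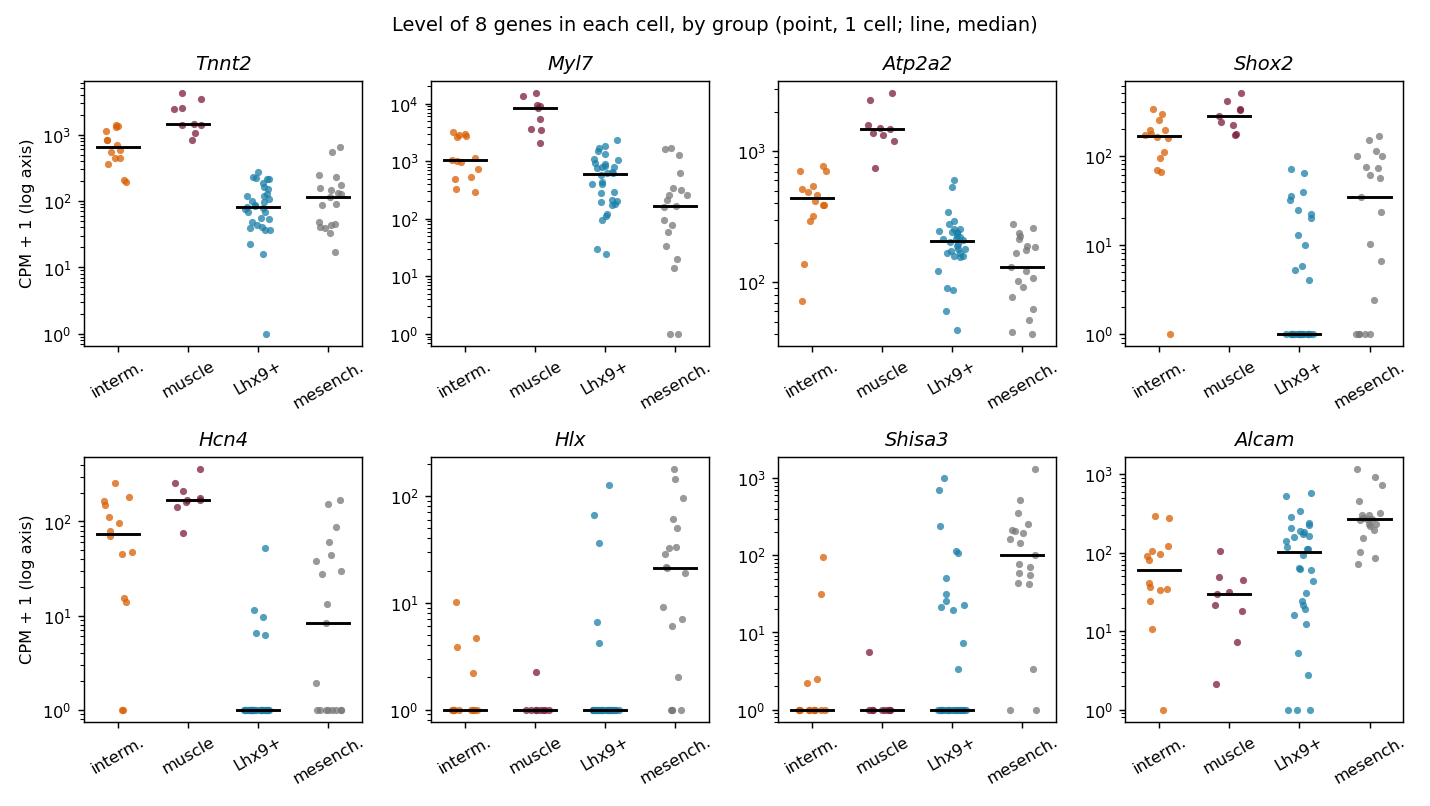
Level of 8 genes in every cell (vertical axis, CPM + 1, log axis) for the intermediate, strongly muscle-like, Lhx9-positive and mesenchymal cells. Each point is a cell and the line is the median. Tnnt2, Myl7, Atp2a2, Shox2 and Hcn4 have higher medians in the intermediate cells than in the mesenchymal cells, and Hlx, Shisa3 and Alcam have lower ones; for Hcn4 and Hlx, as for the other 6 genes, the cells of both groups overlap.

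Of 33 calcium-handling and ion-channel genes, 17 were tested. Of these, 3 were called higher (17.6%, against 0.7% of all genes) and 0 lower, with a median log2 fold of 0.34. Atp2a2 encodes SERCA2, the pump that refills the sarcoplasmic reticulum with calcium. It ran from 71.0 to 770 CPM in intermediate cells (median 441) and from 39.4 to 275 CPM in mesenchymal cells (median 130). Of the intermediate cells, 12 of 14 lay above every mesenchymal cell. Means were 444 ± 204 CPM in intermediate cells, 1610 ± 631 CPM in strongly muscle-like cells, 216 ± 114 CPM in Lhx9-positive cells and 145 ± 76.2 CPM in mesenchymal cells. The fold over the mesenchymal cells was 3.07 with 91.0% of pairs. Ryr2, the cardiac calcium-release channel, averaged 37.0 ± 36.4 CPM in intermediate cells and 10.4 ± 17.1 CPM in mesenchymal cells (fold 3.58). Jph2, junctophilin, which holds the plasma membrane against the reticulum, averaged 33.3 ± 33.1 CPM in intermediate cells and 6.16 ± 10.8 CPM in mesenchymal cells (fold 5.40). The calcium buffer Casq2 and the SERCA inhibitor Pln had 0 counts in both groups.

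Hcn4 encodes the channel of the pacemaker current and marks the sinoatrial node and early inflow myocardium. It ran from 0 to 257 CPM in intermediate cells (median 73.5) and from 0 to 169 CPM in mesenchymal cells (median 7.25), so the ranges overlapped broadly. Detection was found in 12 of 14 intermediate cells (57.2% to 98.2%) and in 9 of 19 mesenchymal cells (24.4% to 71.1%). Means were 87.2 ± 77.2 CPM in intermediate cells, 191 ± 81.2 CPM in strongly muscle-like cells, 2.51 ± 9.17 CPM in Lhx9-positive cells and 32.9 ± 51.4 CPM in mesenchymal cells. The fold was 2.65 with 74.8% of pairs, which missed the call. The 2 intermediate cells without Hcn4 were P1-12 and P1-3, the cells with Lhx9.

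Among 25 tested regulators of the heart inflow and pacemaker region, 3 were called higher (12.0%) and 1, Hand1, lower (4.0%). Over all genes the shares were 0.7% higher and 0.872% lower. Shox2, a homeobox factor required in mice for the sinoatrial node, ran from 0 to 336 CPM in intermediate cells (median 165) and from 0 to 167 CPM in mesenchymal cells (median 33.7). The transcript was present in 13 of 14 intermediate cells (66.1% to 99.8%) and 12 of 19 mesenchymal cells (38.4% to 83.7%). The fold was 3.20 with 84.8% of pairs, at means of 161 ± 91.9 CPM in intermediate cells and 50.5 ± 54.3 CPM in mesenchymal cells. Vsnl1, a neuronal calcium sensor that is also found in the sinoatrial node, averaged 43.3 ± 21.5 CPM in intermediate cells and 13.0 ± 17.1 CPM in mesenchymal cells (fold 3.34). Tbx5, a T-box factor of the posterior heart and forelimb, averaged 192 ± 132 CPM in intermediate cells and 92.4 ± 68.5 CPM in mesenchymal cells. Its fold of 2.08 was near the bound and the call was lost on leaving out any 1 of 11 cells, with folds from 1.80 to 2.28.

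Other inflow factors were shared between the groups. Gata4, a zinc-finger factor needed for the pro-epicardium in mice, averaged 527 ± 167 CPM in intermediate cells and 516 ± 201 CPM in mesenchymal cells, a fold of 1.02. Gata5 had the same fold of 1.02. Tbx18, the T-box factor after which the Cre is named, averaged 212 ± 113 CPM in intermediate cells, 70.2 ± 79.0 CPM in strongly muscle-like cells, 241 ± 77.4 CPM in Lhx9-positive cells and 148 ± 127 CPM in mesenchymal cells. The fold over mesenchymal cells was 1.43 with 64.3% of pairs, and 14 of 14 intermediate cells had the transcript, against 6 of 9 strongly muscle-like cells. Isl1, a LIM-homeobox factor of the second heart field, was detected in 4 of 14 intermediate cells (8.39% to 58.1%), 7 of 9 strongly muscle-like cells and 2 of 19 mesenchymal cells (1.30% to 33.1%).

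Of 14 tested smooth muscle and pericyte genes, 2 were called higher (14.3%, against 0.7% of all genes) and 0 lower. Acta2, smooth muscle alpha-actin, which is also expressed in the embryonic heart, ran from 58.0 to 5205 CPM in intermediate cells (median 1164) and from 0 to 2788 CPM in mesenchymal cells (median 289). Its mean was 1350 ± 1301 CPM in intermediate cells and 526 ± 702 CPM in mesenchymal cells, a fold of 2.57. The actin genes are close in sequence to Actc1, which chose the cells, so the split of reads between them is uncertain. Acta1, the skeletal paralogue, was detected in 0 of 14 intermediate cells and 0 of 9 strongly muscle-like cells. Tagln, an actin-bundling protein of smooth muscle, averaged 295 ± 235 CPM in intermediate cells and 101 ± 133 CPM in mesenchymal cells (fold 2.92). The skeletal regulators Myod1 and Myf5 had 0 counts in both groups. Among 2 tested genes of the skeletal list, Tnni2, fast troponin I, was called higher. It passed the filter on low counts through the intermediate cells alone. It was seen in 7 of 14 intermediate cells and had 0 counts in the mesenchymal cells, so that its mean of 15.7 ± 25.9 CPM was at least 103-fold higher, counted against a floor of 3 counts over the group. That bound was 64.1 without intermediate cell P1-5, and the call was lost on leaving out any 1 of 7 cells.

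The genes of highest fold included muscle genes outside these lists. Myl1, a fast essential light chain, was detected in 9 of 14 intermediate cells, 9 of 9 strongly muscle-like cells and 1 of 19 mesenchymal cells, with a fold of 36.6. The single mesenchymal cell was P1-30, and without it the mean was at least 235-fold higher, against the floor of 3 counts over the group. Sh3bgr ran from 0 to 147 CPM in intermediate cells (median 53.8) and from 0 to 20.4 CPM in mesenchymal cells (median 0). It had a fold of 15.1, and 10 of 14 intermediate cells lay above every mesenchymal cell. Hspb7, a small heat-shock protein of heart and skeletal muscle, had a fold of 27.6, or 1004 without mesenchymal cell P1-56, and its call was lost on leaving out any 1 of 8 cells. Ank3, the membrane adaptor ankyrin-G, had a fold of 6.14 with 87.6% of pairs.

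Metabolic and secreted factors were among the abundant genes called higher. Igfbp5, a secreted binding protein of insulin-like growth factors, ran from 384 to 1758 CPM in intermediate cells (median 801) and from 0 to 745 CPM in mesenchymal cells (median 267), with a fold of 3.20 and 89.1% of pairs. Gyg, glycogenin, which primes glycogen, averaged 1168 ± 392 CPM in intermediate cells and 473 ± 465 CPM in mesenchymal cells (fold 2.47, 88.0% of pairs). Atp1b1, a sodium pump subunit, averaged 96.4 ± 43.7 CPM in intermediate cells and 34.4 ± 42.3 CPM in mesenchymal cells (fold 2.80). Fbxo32, the ubiquitin-ligase subunit atrogin-1, averaged 131 ± 157 CPM in intermediate cells, 464 ± 231 CPM in strongly muscle-like cells and 39.7 ± 78.0 CPM in mesenchymal cells (fold 3.29, or 5.03 without mesenchymal cell P1-32). These 4 genes were picked from the 77 after their values were seen. None of 30 mitochondrial energy and creatine genes was called, and their median log2 fold was 0.22.

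Of the 77 genes called higher, 49 had a larger mean in the strongly muscle-like cells than in the intermediate cells. Against the mesenchymal mean, 59 of the 77 were at least 2-fold higher in strongly muscle-like cells and 22 in Lhx9-positive cells. The matching shares over all tested genes were not counted, so these counts cannot be read as a trait of the called genes. Slc39a8 and Kazn were among those without a larger mean in the strongly muscle-like cells. These were the 2 genes of 11006 (0.0182%) called higher with a mean also at least 2-fold above the strongly muscle-like and the Lhx9-positive cells. That rule was chosen after the values were seen. Slc39a8, a zinc and manganese importer, averaged 104 ± 99.4 CPM in intermediate cells, 47.5 ± 75.2 CPM in strongly muscle-like cells, 28.2 ± 39.7 CPM in Lhx9-positive cells and 24.3 ± 37.9 CPM in mesenchymal cells. It was detected in 14 of 14, 4 of 9, 19 of 32 and 10 of 19 cells of these groups in the same order. Kazn, at 21.7 ± 19.5 CPM in intermediate cells, lost its call on leaving out any 1 of 21 cells.

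**Figure D3:**
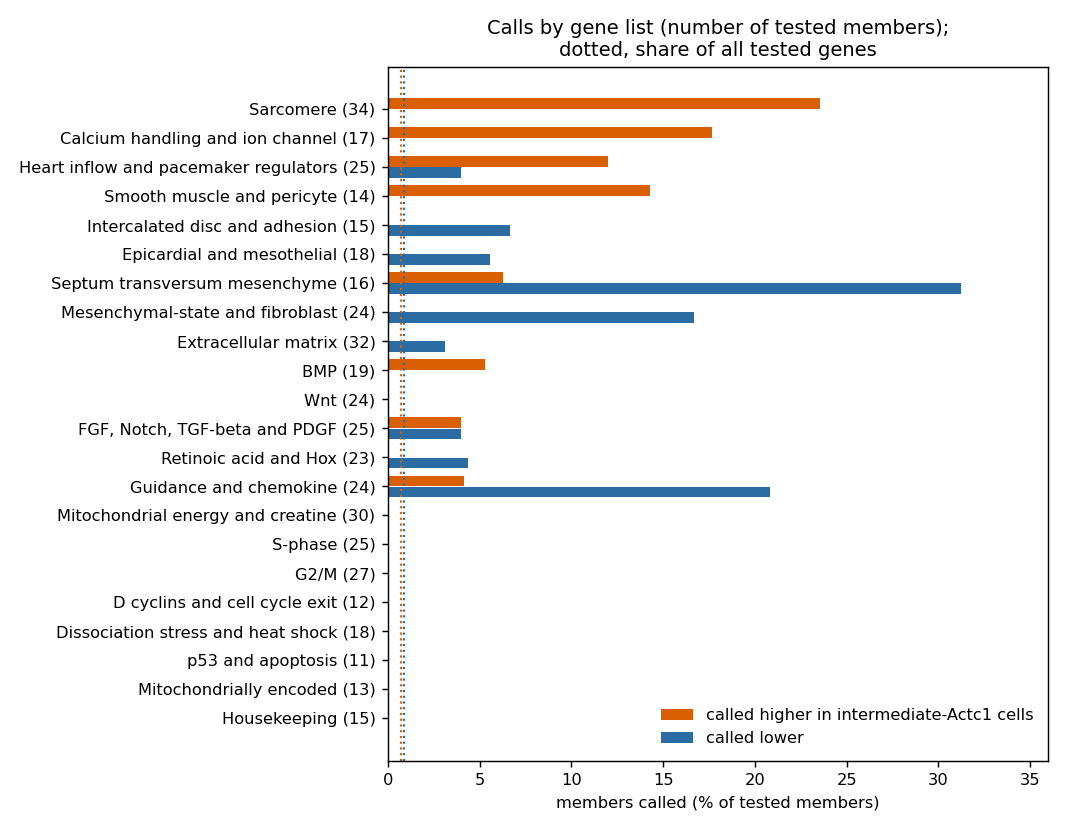
Share of tested members called higher (orange) and called lower (blue) in intermediate cells relative to mesenchymal cells, for each gene list with at least 10 tested members (number in brackets). The dotted lines mark 0.7% and 0.872%, the shares over all 11006 genes. Sarcomere, calcium-handling, smooth muscle and inflow lists have the longest orange bars, and septum transversum, guidance and mesenchymal lists the longest blue bars.

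Genes of the septum transversum, the mesenchyme that gives rise to the diaphragm and to part of the liver stroma, were often called lower in the intermediate cells. Of 16 tested, 5 were called lower (31.3%, against 0.872% of all genes) and 1, Tbx5, higher. Hlx and Hand1 passed the filter on low counts through the mesenchymal cells, where they were high. The share called lower is therefore not independent of the filter. The list as a whole was not shifted to the same extent: 7 of the 16 had a fold above 1, and the median log2 fold was -0.20, against -0.04 over all genes. The summed level of the 20 genes on the list ran from 1392 to 4489 CPM in intermediate cells (median 2255) and from 1609 to 4584 CPM in mesenchymal cells (median 2336). Hlx, a homeobox factor needed in mice for liver outgrowth, was found in 1 of 14 intermediate cells (0.181% to 33.9%) and 12 of 19 mesenchymal cells (38.4% to 83.7%). Its mean was 1.21 ± 2.58 CPM in intermediate cells and 36.5 ± 50.3 CPM in mesenchymal cells, 30.2-fold lower in the intermediate cells, or 61.4-fold without intermediate cell P1-73. Foxf1, a forkhead factor of splanchnic mesoderm, averaged 7.57 ± 20.3 CPM in intermediate cells and 116 ± 169 CPM in mesenchymal cells, 15.3-fold lower, or 40.9-fold without intermediate cell P1-9. Lhx2, a LIM-homeobox factor of liver mesenchyme, was detected in 3 of 14 intermediate and 14 of 19 mesenchymal cells and was 7.97-fold lower, or 13.7-fold without intermediate cell P1-62.

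Hand1 and Alcam completed the 5. Hand1, a basic helix-loop-helix factor of lateral mesoderm, was detected in intermediate cell P1-9 alone and in 11 of 19 mesenchymal cells, at means of 1.77 ± 6.6 CPM in intermediate cells and 65.7 ± 99.8 CPM in mesenchymal cells. It was 37.2-fold lower, or at least 267-fold without P1-9, when the other intermediate cells were at 0 and the floor of 3 counts over the group applied. Its relative Hand2 averaged 18.2 ± 10.5 CPM in intermediate cells and 21.0 ± 9.02 CPM in mesenchymal cells, a fold of 0.87 that was not called. Alcam, a cell adhesion molecule used to isolate septum transversum cells in mice, ran from 0 to 292 CPM in intermediate cells (median 60.0) and from 70.8 to 1173 CPM in mesenchymal cells (median 266). Every mesenchymal cell lay above the intermediate median. Means were 87.8 ± 90.8 CPM in intermediate cells, 33.4 ± 31.0 CPM in strongly muscle-like cells, 130 ± 144 CPM in Lhx9-positive cells and 345 ± 291 CPM in mesenchymal cells. Alcam was 3.93-fold lower than in mesenchymal cells, with 12.8% of pairs.

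Of 24 tested mesenchymal-state and fibroblast genes, 4 were called lower (16.7%, against 0.872% of all genes) and 0 higher. Of the 24, 2 had a fold above 1, with a median log2 fold of -0.51. The list was chosen with earlier results of these data known, so its share is not independent of them. Shisa3, of a family of inhibitors of Wnt and FGF signalling, ran from 0 to 93.6 CPM in intermediate cells (median 0) and from 0 to 1326 CPM in mesenchymal cells (median 101). It was detected in 2 of 14 intermediate cells (1.78% to 42.8%) and in 16 of 19 mesenchymal cells (60.4% to 96.6%). It thus passed the filter on low counts through the mesenchymal cells. It was 22.2-fold lower with 9.77% of pairs, or 79.2-fold without intermediate cell P1-73. Tgfbr3, betaglycan, a TGF-beta co-receptor, averaged 1.69 ± 4.31 CPM in intermediate cells and 57.1 ± 89.3 CPM in mesenchymal cells. It was 33.8-fold lower, or 57.9-fold and 68.6-fold without intermediate cells P1-29 and P1-76, and lost its call on leaving out any 1 of 11 cells. Mmp2, a gelatinase, and Cyp1b1, a cytochrome P450, were 2.56-fold and 4.02-fold lower. Each had 24.8% of pairs, next to the bound of 25%, and lost its call on leaving out any 1 of 18 cells.

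The abundant mesenchymal genes were not called, and they were widespread in the mesenchymal cells, where Col3a1 and Tnc were each detected in 18 of 19. Vim, vimentin, averaged 744 ± 336 CPM in intermediate cells and 946 ± 377 CPM in mesenchymal cells (fold 0.79). Col3a1, a fibrillar collagen, averaged 330 ± 342 CPM in intermediate cells and 657 ± 602 CPM in mesenchymal cells, with 30.6% of pairs. Tnc, tenascin-C, averaged 155 ± 167 CPM in intermediate cells and 309 ± 166 CPM in mesenchymal cells, with 25.8% of pairs. Of 32 extracellular matrix genes, Col26a1 was the 1 called lower, at 4.79 ± 9.84 CPM in intermediate cells and 20.2 ± 18.9 CPM in mesenchymal cells. It was 4.22-fold lower, or 7.60-fold without intermediate cell P1-34.

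Guidance cues and their receptors differed in both directions. Of 24 tested, 5 were called lower (20.8%, against 0.872% of all genes) and 1 higher (4.17%, against 0.7%), with a median log2 fold of -0.84. The receptors Robo1 and Robo2 were 3.53-fold and 3.03-fold lower. Robo2 ran from 0 to 98.0 CPM in intermediate cells (median 26.8) and from 18.8 to 365 CPM in mesenchymal cells (median 69.1). Their ligand Slit3 averaged 89.1 ± 54.4 CPM in intermediate cells and 36.9 ± 49.9 CPM in mesenchymal cells, a fold of 2.41 with 78.8% of pairs. Ackr3, a scavenging receptor of the chemokine Cxcl12, averaged 189 ± 206 CPM in intermediate cells and 449 ± 269 CPM in mesenchymal cells and was 2.38-fold lower. The semaphorins Sema3d and Sema6d were 2.67-fold and 6.41-fold lower, and the value for Sema3d was 4.55-fold without intermediate cell P1-62. Sema3d averaged 19.8 ± 33.2 CPM in intermediate cells, 75.7 ± 63.0 CPM in Lhx9-positive cells and 52.9 ± 44.9 CPM in mesenchymal cells. It was the 1 of 18 tested epicardial and mesothelial genes that was called.

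At the shares over all genes, 0.7% higher and 0.872% lower, lists of this size would hold less than 1 call each, so a single call or none says little about the following lists. Among 19 BMP genes Id4, an inhibitor of basic helix-loop-helix factors, was called higher (fold 3.86, or 10.8 without mesenchymal cell P1-63). Among 25 FGF, Notch, TGF-beta and PDGF genes, the Notch ligand Jag1 was called higher and Tgfbr3 lower. The Jag1 fold was 2.02, or 6.30 without mesenchymal cell P1-87, and the call was lost on leaving out any 1 of 22 cells. Among 23 retinoic acid and Hox genes Hoxb2 was called lower, at 56.4 ± 36.2 CPM in intermediate cells and 120 ± 73.7 CPM in mesenchymal cells. This list was shifted downward beyond its 1 call. Its median log2 fold was -0.85, against -0.04 over all genes, and 6 of the 23 had a fold above 1. Of 15 intercalated disc and adhesion genes, Alcam was the 1 called. None of 24 Wnt genes was called. The cell cycle lists held 0 of 25 S-phase, 0 of 27 G2/M and 0 of 12 cyclin D and cell cycle exit genes. The summed G2/M level ran from 531 to 12520 CPM in intermediate cells (median 4246) and from 413 to 14939 CPM in mesenchymal cells (median 5336). In strongly muscle-like cells it ran from 145 to 8990 CPM (median 405).

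Further genes of the largest inverse folds lay outside the lists. Galnt14, a glycosyltransferase, was detected in 0 of 14 intermediate cells, a share of up to 21.4% by the same limit of 3 cells over 14. It was detected in 13 of 19 mesenchymal cells (exact interval 43.4% to 87.4%), and through these alone it passed the filter on low counts. Its means were 0.234 ± 0.876 CPM in intermediate cells and 62.4 ± 67.9 CPM in mesenchymal cells. Itm2a, a membrane protein, averaged 83.6 ± 118 CPM in intermediate cells, 59.7 ± 76.4 CPM in strongly muscle-like cells, 1068 ± 969 CPM in Lhx9-positive cells and 810 ± 1073 CPM in mesenchymal cells, and was 9.69-fold lower than in the mesenchymal cells. Ghr, the growth hormone receptor, was 9.41-fold lower, or 15.1-fold without intermediate cell P1-3. Cdo1, a cysteine dioxygenase, was 7.95-fold lower with 9.59% of pairs. It was detected in 5 of 14 intermediate cells and 18 of 19 mesenchymal cells.

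**Figure D4:**
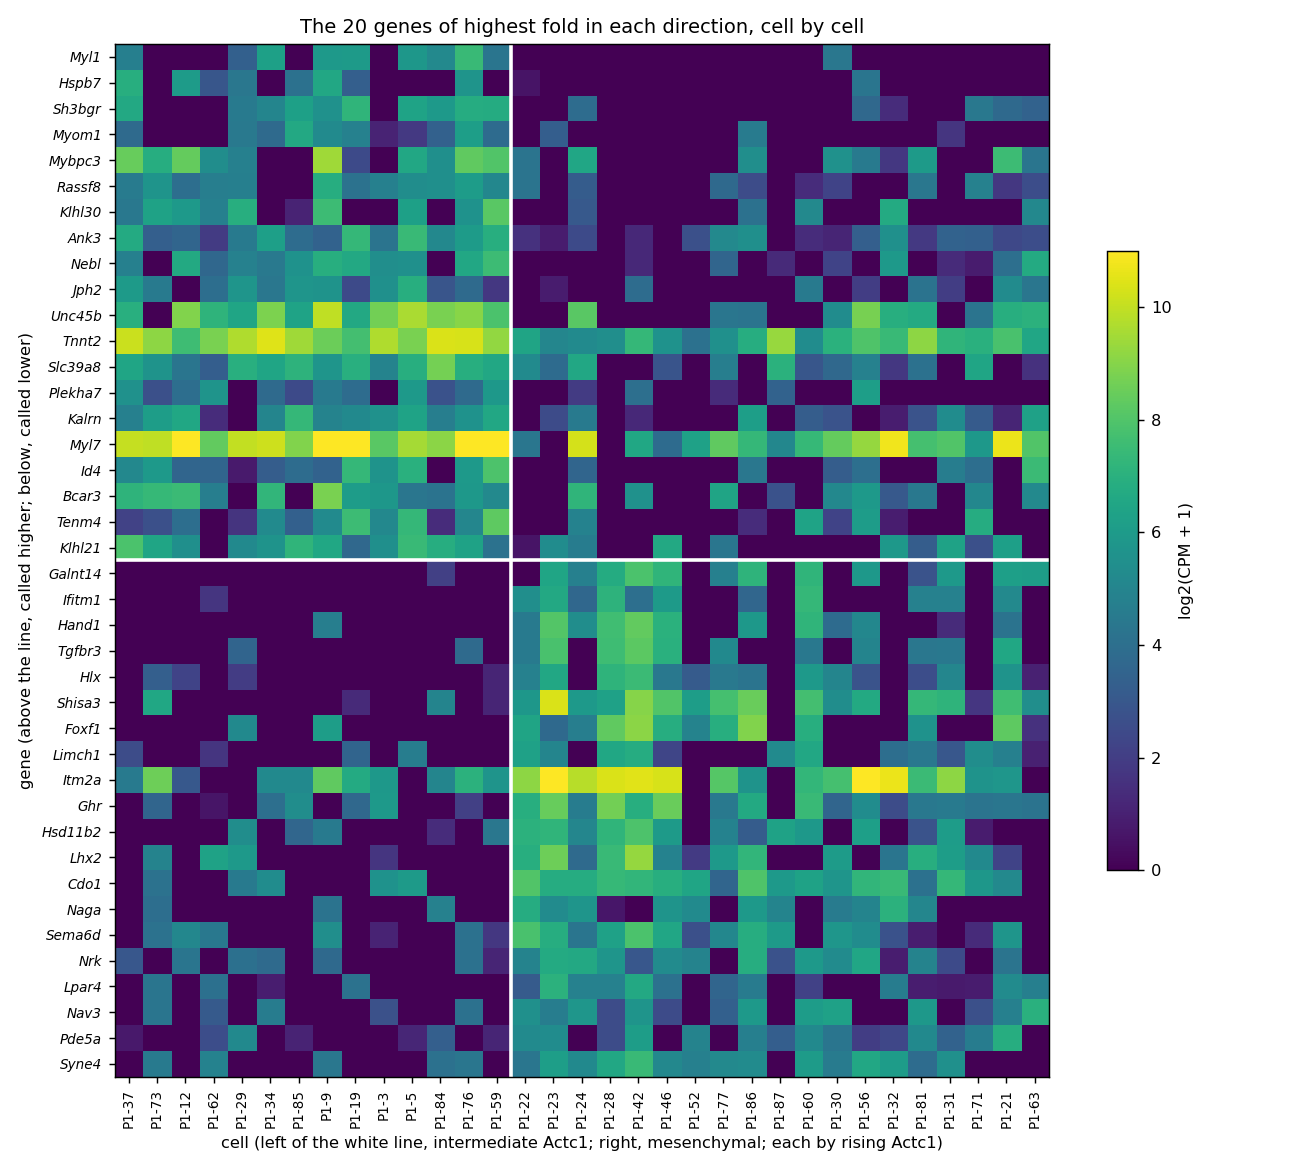
Level of the 20 genes of highest fold in each direction (rows, called higher above the white line and called lower below it) in the 14 intermediate cells (left) and the 19 mesenchymal cells (right), with cells in order of Actc1 within each group. Colour is log2(CPM + 1). Tnnt2 and Myl7 are bright in most intermediate cells, while most of the other higher genes are at 0 in some of them, and Myl7 is also bright in several mesenchymal cells.

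The 14 intermediate cells differed among themselves. A list level, the mean of log2(CPM + 1) over its tested members, ran for the sarcomere genes from 3.98 to 6.64 in intermediate cells, from 6.15 to 8.99 in strongly muscle-like cells, from 2.39 to 4.34 in Lhx9-positive cells and from 2.24 to 4.91 in mesenchymal cells. Between 18 and 33 of the 34 tested sarcomere genes were detected per intermediate cell (median 22.5), and between 11 and 24 per mesenchymal cell (median 16). Cell P1-37, which had the lowest Actc1 of the 14, had the highest sarcomere level, 6.64, and 33 of 34 genes detected. Each intermediate cell exceeded every mesenchymal cell in 9 to 30 of the 77 genes called higher. That count was 28 to 42 in strongly muscle-like cells and 2 to 17 in Lhx9-positive cells. The 77 genes were called from these same intermediate and mesenchymal cells, so the count is not a separate result. The share over all genes was not counted. Mesothelial genes varied among the intermediate cells too. Cell P1-12 had an epicardial and mesothelial level of 6.70, with Upk3b, a mesothelial uroplakin, at 511 CPM and Wt1, a zinc-finger factor of the epicardium, at 388 CPM. Cell P1-9 had Upk3b at 319 CPM and Podxl, a sialomucin of mesothelium, at 1070 CPM. Upk3b was detected in no other intermediate cell. Bmp4, a BMP ligand, was at 873, 649 and 558 CPM in cells P1-19, P1-59 and P1-5 and at most 191 CPM in the other intermediate cells, against 208 to 1612 CPM in strongly muscle-like cells.

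**Figure D5:**
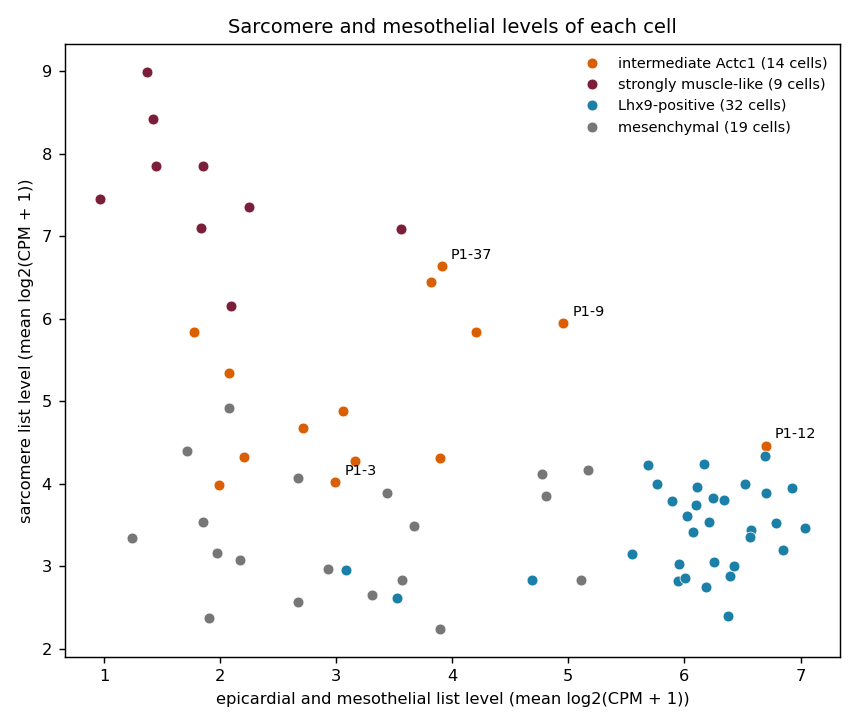
Sarcomere list level of each cell (vertical axis, mean log2(CPM + 1)) against its epicardial and mesothelial list level (horizontal axis, same unit), with each point a cell coloured by group. Intermediate cells lie between 3.98 and 6.64 on the sarcomere axis, strongly muscle-like cells between 6.15 and 8.99 and mesenchymal cells between 2.24 and 4.91. Cells P1-12 and P1-9 lie to the right, at mesothelial levels of 6.70 and 4.96.

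Without P1-12, P1-3 and P1-9, which carry Lhx9 or mesothelial genes, 121 genes were called higher and 124 lower, against 77 and 96 with all 14 cells. In that comparison 9 sarcomere genes and 6 calcium-handling genes were called higher. Without P1-9 or without P1-37 the sarcomere count was 5.

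Promoters could be read for 60 of the 77 higher genes and 75 of the 96 lower genes. The CArG box, searched on both strands of the 250 bases before the start, was found in 5 of the 60 (8.33%), namely Myl7, Myom1, Nebl, Lclat1 and Myl9. It was found in 3 of the 75 lower genes (4.0%), in 1.51% of 8532 tested genes with a promoter and in 6 of 30 tested sarcomere genes (20.0%). The site of MEF2, another muscle regulator, was found in 5.0% of higher genes, 6.67% of lower genes and 1.86% of tested genes. Of the other motifs searched, CATTCC, bound by TEAD factors, was found in 23.3%, 5.33% and 12.3% of these sets in the same order, CAGCTG, an E-box, in 26.7%, 8.0% and 13.6%, AGGTGT, bound by T-box factors, in 16.7%, 10.7% and 10.9%, and AGATAA, bound by GATA factors, in 13.3%, 6.67% and 6.74%. A gene with several annotated starts counted when any of them held the motif. A match describes these letters and does not show binding.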

How the data were processed

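RNA of 74 single cells was amplified full-length with SMART-Seq v4 and made into Nextera XT libraries, per the labels' protocols. Each gene has 1 estimated count per cell as the authors deposited it, a whole number with no correction for depth or length. Kallisto is named per the submitters' processing notes, without a version and beside hg38, a human build, whereas every identifier is a mouse Ensembl one. Of 30323 identifiers, 29936 had a symbol and position in GENCODE M21 (GRCm38). The other 387 held 0.346% of counts and stayed in the totals. No pair of cells was identical (0). Cells were sorted by flow cytometry, and no doublet caller was run.

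Counts were divided by each cell's total to give CPM. As the labels name no embryo or litter, cells are 1 sample, and no test was run. Means carry the SD over cells, and shares of cells carry Clopper-Pearson 95% intervals, which cover counting error only. The upper limit given for detection in 0 cells is instead 3 over the number of cells. Reads without molecular identifiers are not independent molecules. Where a group had 0 counts, its mean was set to 3 counts over the group's total. The rule was tested on simulated counts, where genes without a planted difference were also called.

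Members and the 27 gene lists were chosen with earlier results of these data known. Named genes were Hcn4, Tnnt2, the 20 of highest fold called in each direction with a mean of at least 20 CPM in the higher group, and for each list its called members (at most 8) and its 2 most abundant members. Further genes were picked with their values known. The alternatives varied the scaling, filters, bounds, pseudocount and pair share, thinned cells to 300000 counts, or left out cells. Software was R 4.3.3 with scran 1.30.0 and edgeR 4.0.16 (TMM library sizes), and Python 3.11.15 with SciPy 1.17.1, pandas 2.3.3, numpy 2.4.6 and matplotlib 3.10.9.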

Additional observations from a re-analysis of the deposited data

How the results depend on the processing

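The counts of calls depended most on the required share of cell pairs. Without it, 629 genes were called higher and 954 lower, with 23 sarcomere and 6 calcium-handling genes higher and 7 mesenchymal and 11 guidance genes lower. At 85% of pairs these counts were 12, 5, 2, 1, 1 and 0, and 1 septum transversum gene was lower. A pseudocount of 10 CPM left 50 genes higher. An Actc1 bound of 1000 CPM gave 177 genes lower and 5 calcium-handling genes higher. At that bound 43 of the 77 higher and 52 of the 96 lower calls were shared with the main comparison. Of the genes named above, Shox2, Gyg, Mybpc3, Myl9, Hspb7, Tnni2 and Tbx5 were no longer called higher. Hand1, Itm2a, Ghr, Col26a1, Tgfbr3, Mmp2 and Hoxb2 were no longer called lower. With the upper bound at 3000 CPM, 46 and 71 were shared. There Myl1, Sh3bgr, Mybpc3, Ryr2, Acta2, Fbxo32, Lhx2, Sema3d, Mmp2 and Hoxb2 were no longer called. With the lower bound at 250 CPM, 51 and 67 were shared, and Ryr2, Acta2, Tbx5, Myl9, Nexn and Hspb7 were no longer called. Slit3, Jag1, Kazn and Cyp1b1 lost their calls at all 3 other Actc1 bounds. Intermediate cells with Lhx9 under 5 gave 122 genes higher and 6 calcium-handling genes. Without cells P1-12, P1-3 and P1-9, a choice made after seeing the data, these counts were 121 and 6. Scran size factors and thinned counts each gave 5 calcium-handling genes, and thinning, which left out 1 intermediate cell, gave 1 mesenchymal gene lower.

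Leaving out each cell in turn gave 69 to 99 genes higher, 90 to 116 lower, 5 to 12 sarcomere and 3 to 6 calcium-handling genes higher, and 1 to 6 mesenchymal genes lower, while 5 septum transversum and 5 guidance genes were lower in each case. The calcium-handling count was 6 without P1-3 or P1-12 and 5 without P1-21, P1-32 or P1-71. The mesenchymal count was 1 without P1-22, P1-23, P1-28, P1-31 or P1-42 and 2 without P1-76, P1-46, P1-60, P1-77, P1-81 or P1-86. The called genes among the 109 chosen by the naming rule kept their direction in the alternatives run, and 1 of all 173 called genes changed direction at the Actc1 bound of 1000 CPM. The causes were not tested. No paired analysis was possible because the labels give a single group and no test was run. Genes near 5 counts per cell are at the limit of this depth.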
